A study of Homo sapiens with 9 samples.

Results

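The genes described here encode the PAR (partitioning-defective) polarity complex and the proteins that act directly on it: PARD6B, PARD6A and PARD6G, PARD3, the atypical protein kinase C (aPKC) genes PRKCI and PRKCZ, CDC42, LLGL1, LLGL2 and CRB3. PARD6B was chosen because its level was higher after both SNHG5 siRNAs than after the control siRNA. The other 9 were chosen by the known function of their products, with earlier results of these data known. All 10 genes were among the 15354 rows of the table, and all 10 passed the filter on low values that left 13893 genes to test.

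In epithelial cells the PAR complex marks the apical side of the cell. PAR6 proteins are adaptors without enzyme activity, which hold aPKC and bind CDC42, a small GTPase, when CDC42 carries GTP. This binding relieves the inhibition of aPKC. PAR3 brings PAR6 and aPKC to the forming tight junction, CRB3 is the small transmembrane protein to which PAR6 can attach at the apical membrane, and the LGL proteins (LLGL1, LLGL2) are aPKC substrates that phosphorylation keeps off the apical side.

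The libraries came from HCT116, an established human colorectal cancer line grown in McCoy's medium with serum. Every culture received an siRNA by reverse transfection, at 25 nM according to the labels (the study's general methods give another concentration): a commercial negative control siRNA, or siRNA A or siRNA B against SNHG5, a spliced long non-coding RNA that hosts small nucleolar RNAs in its introns. Each group had 3 libraries, from 3 biological replicates of this single line as the study's methods describe them. Which of the study's siRNAs was named A and which B was not worked out here.

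Library totals ran from 15566530 to 23277549 reads. The gene-level count of SNHG5, the targeted gene, went against the labels. In counts scaled to a common library total (CPM), control libraries held 26.3 to 35.6 CPM. The siRNA A label went with 50.0 to 63.9 CPM and the siRNA B label with 45.2 to 47.8 CPM. These values hold all reads assigned to the gene, and its spliced isoforms were not measured apart. The groups are therefore called the libraries labelled siRNA A and siRNA B, and each direction below rests on those labels. The epithelial markers EPCAM (94.6 to 214 CPM), CDH1 (28.2 to 48.1 CPM) and KRT8 (884 to 1601 CPM) were present in every library, whereas the late colonocyte marker KRT20 did not exceed 0.820 CPM. The 8 epithelial markers in the table summed to 2096 to 2183 CPM in control, 2805 to 3441 CPM in libraries labelled siRNA A and 2393 to 2453 CPM in those labelled siRNA B, and the part of this difference in the results below was not tested. The list did not move as a whole: mean KRT8 was 900 CPM in control and 1461 CPM with the siRNA A label, whereas EPCAM was 205 and 108 CPM and CDX2 16.2 and 8.53 CPM. Of the markers of other cell types 4 of 7 were in the table. COL3A1 and ALB did not exceed 0.143 and 0.129 CPM and DES 1.29 CPM, but COL1A1 ranged from 8.55 to 19.5 CPM, with group means of 19.0 (control), 10.5 (siRNA A) and 9.10 CPM (siRNA B).

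Levels below are CPM scaled between libraries by the trimmed mean of M values (TMM), called scaled CPM. Log2 fold changes were fitted on log2(scaled CPM + 1), a scale that shrinks the change of weakly expressed genes, and are given with their standard error (SE) from limma. A gene was called at a Benjamini-Hochberg adjusted p under 0.05 over all 13893 genes. The scaling matters for these genes. Over all genes, the median log2 fold change against control was −0.02 (siRNA A) and 0.0043 (siRNA B) after TMM scaling, and −0.34 and −0.18 on library totals alone. Bulk profiles also cannot tell fewer cells with a transcript from less RNA per cell.

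PARD6B (ENSG00000124171.4, chr20:49348117-49373332 of GRCh37, plus strand, overlapping no annotated gene) was the member with the widest separation. Its level was 19.4, 19.0 and 22.5 scaled CPM in the control libraries. In the libraries labelled siRNA A it was 115, 141 and 123 scaled CPM, and in those labelled siRNA B it was 97.2, 105 and 76.8 scaled CPM. All 6 siRNA libraries therefore lay above the control libraries, and all 3 libraries labelled siRNA A lay above those labelled siRNA B. The means were 20.3 ± 1.91, 126 ± 13.7 and 93.1 ± 14.7 scaled CPM (SD, n = 3 each), which are 6.22-fold and 4.59-fold the control mean. The log2 fold changes against control were 2.58 and 2.14 (SE 0.13 for each), or 2.22 and 1.93 on library totals alone. These contrasts chose the gene, so they are given as a description without a test. Between 438 and 2290 reads stood behind each value.

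PARD6B was chosen on each siRNA against control and not on the difference between the siRNAs. That difference uses the same siRNA libraries, so its test is not independent of the choice. PARD6B was higher in the libraries labelled siRNA A than in those labelled siRNA B by a log2 difference of 0.44 (SE 0.13; adjusted p = 0.0214, limma). This call was lost on library totals alone (0.29, adjusted p = 0.0995). It was also lost without siRNA A replicate 2 (0.36, adjusted p = 0.0793) and without siRNA B replicate 3 (0.31, adjusted p = 0.0895). These were the highest library labelled siRNA A and the lowest labelled siRNA B.

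**Figure D1:**
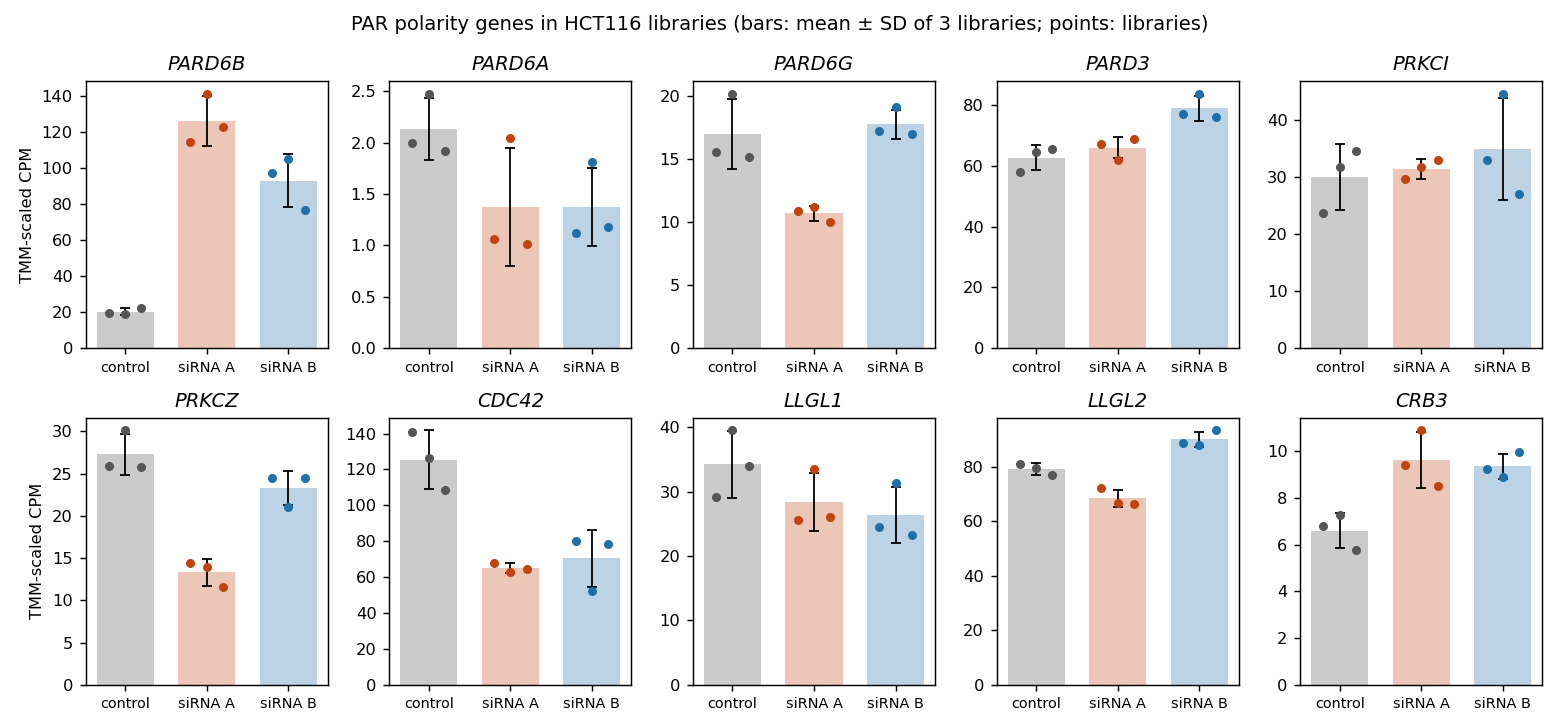
Scaled CPM of the 10 PAR polarity genes (y axis, a separate linear scale from 0 for each gene) in the control libraries and those labelled siRNA A and siRNA B (x axis). Points are libraries, bars the mean and error bars the SD of 3 libraries; the means of PARD6B are 20.3, 126 and 93.1, and those of CDC42 are 125, 65.1 and 70.4.

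The other PAR6 genes did not follow PARD6B. PARD6G (ENSG00000178184.11, chr18:77915115-78005397, minus strand) stood at 15.6, 20.2 and 15.2 scaled CPM in control, at 10.9, 11.2 and 10.0 in libraries labelled siRNA A and at 17.2, 19.1 and 17.0 in those labelled siRNA B. The libraries labelled siRNA A lay below all others. PARD6G fell in libraries labelled siRNA A against control by 0.61 on the log2 scale (SE 0.13, adjusted p = 0.00199) and was not called for siRNA B (0.07, SE 0.13, adjusted p = 0.703). The 2 siRNAs also differed from each other (−0.68, SE 0.13, adjusted p = 0.00177). On the other strand 3 genes overlap PARD6G, among them PARD6G-AS1, and the use of strand in the counting is not given in the sources used here.

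PARD6A (ENSG00000102981.4, chr16:67694849-67696677, plus strand) had the lowest counts of the members, 19 to 57 reads per library. It stood at 1.99, 2.48 and 1.92 scaled CPM in control, at 1.06, 2.04 and 1.02 in libraries labelled siRNA A and at 1.12, 1.81 and 1.18 in those labelled siRNA B. A single library labelled siRNA A reached the control range, and none labelled siRNA B did. The log2 fold changes were −0.42 (SE 0.19, adjusted p = 0.0772) and −0.41 (SE 0.19, adjusted p = 0.110). For siRNA A the value was called when the replicate numbers entered the model as a block (adjusted p = 0.0208). It was also called when replicate 2 of siRNA A was left out (−0.62, adjusted p = 0.0135) and on library totals alone (−0.66, adjusted p = 0.00705). The siRNA B value was called on library totals alone (−0.56, adjusted p = 0.0266). Within each library, the log2 ratio of PARD6A to PARD6G was −2.99 ± 0.032 in control, and −3.04 ± 0.505 and −3.73 ± 0.289 after siRNA A and siRNA B. The siRNA B ratios lay below those of both other groups, with a difference of −0.74 from control, and siRNA A exceeded siRNA B by 0.69 (two-sided exact permutation test, p = 0.1 and adjusted p = 0.225 for each).

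Set side by side per length of merged exons, the 3 PAR6 genes divided the family differently in the 3 groups. PARD6B made up 44.3% ± 5.47 of PAR6 CPM per kb in control, 88.6% ± 0.786 in libraries labelled siRNA A and 79.2% ± 1.95 in those labelled siRNA B (SD, n = 3). PARD6G made up 41.2%, 8.44% and 17.1%, and PARD6A 14.6%, 2.98% and 3.67%. Within a library this make-up does not depend on the scaling between libraries. PARD6B and PARD6G thus stood near each other in control, and PARD6B exceeded PARD6G in each of the other 6 libraries. With the length of the longest transcript PARD6B made up 42.3%, 87.7% and 78.0%. The numerator is the gene that chose the set, so no test was made.

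**Figure D2:**
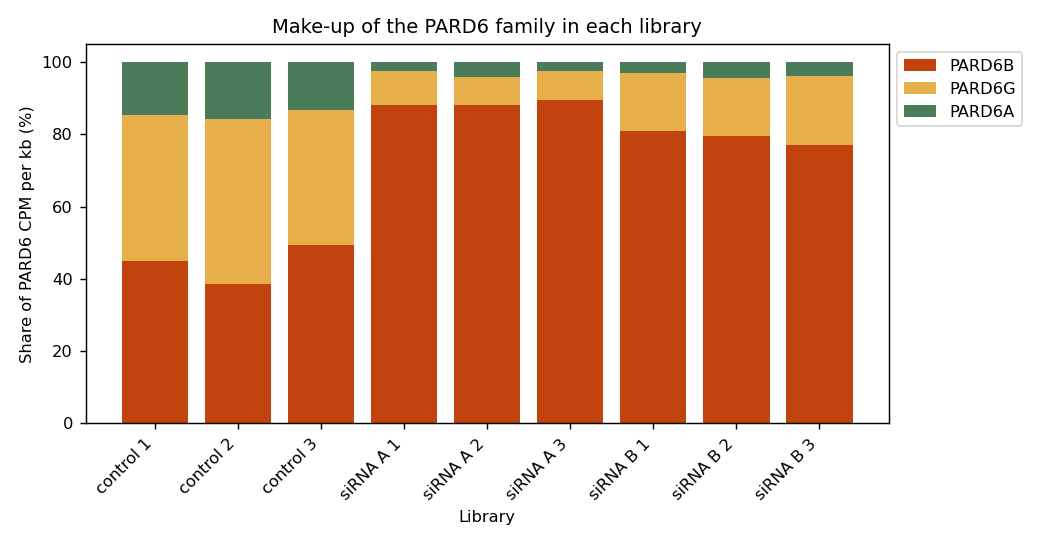
Share of PARD6B, PARD6G and PARD6A in their summed CPM per kb of merged exons (y axis, percent) in each of the 9 libraries (x axis). PARD6B takes 38.5% to 49.4% in the control libraries and 77.1% to 89.5% in the libraries labelled siRNA A or siRNA B.

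CDC42, the GTPase that PAR6 proteins bind, was the member that fell with both siRNAs. CDC42 (ENSG00000070831.11, chr1:22379120-22427853, plus strand) stood at 141, 127 and 108 scaled CPM in control, at 67.9, 62.7 and 64.5 in libraries labelled siRNA A and at 80.2, 52.3 and 78.7 in those labelled siRNA B. Every siRNA library lay below every control library. The means were 125 ± 16.4, 65.1 ± 2.65 and 70.4 ± 15.7 scaled CPM (SD, n = 3). CDC42 fell by 0.93 on the log2 scale for siRNA A (SE 0.16, adjusted p = 5.04e-04) and by 0.84 for siRNA B (SE 0.16, adjusted p = 0.00177), and the siRNAs were not called against each other (−0.09, SE 0.16, adjusted p = 0.695). Both calls held under every alternative tried. Both comparisons use the same 3 control libraries and are not independent of each other. CDC42 overlaps CDC42-IT1 on its own strand and CDC42-AS1 on the other.

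The aPKC genes parted from each other. PRKCZ (ENSG00000067606.11, chr1:1981850-2116834, plus strand), which encodes aPKC zeta, stood at 25.9, 30.1 and 25.8 scaled CPM in control, at 14.5, 13.9 and 11.5 in libraries labelled siRNA A and at 24.5, 21.0 and 24.5 in those labelled siRNA B. The siRNA B values lay between the other groups without overlap. PRKCZ fell by 0.99 on the log2 scale for siRNA A against control (SE 0.12, adjusted p = 7.31e-05) and differed between the siRNAs (−0.77, SE 0.12, adjusted p = 6.71e-04). For siRNA B against control it was not called (−0.22, SE 0.12, adjusted p = 0.197), but it was on library totals alone (−0.42, adjusted p = 0.0311). PRKCZ-AS1 and FAAP20 overlap it on the other strand.

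PRKCI (ENSG00000163558.8, chr3:169940212-170023765, plus strand), which encodes aPKC iota, was not called in any comparison. It stood at 23.6, 31.8 and 34.7 scaled CPM in control, at 29.6, 31.7 and 33.1 in libraries labelled siRNA A and at 33.0, 44.7 and 27.1 in those labelled siRNA B, so all groups overlapped. Its log2 fold changes against control were 0.08 and 0.20 (SE 0.18 for each), and the first turned negative on library totals alone (−0.28, adjusted p = 0.193). Within each library, the log2 ratio of PRKCI to PRKCZ was 0.13 ± 0.281 in control, and 1.25 ± 0.249 and 0.56 ± 0.484 after siRNA A and siRNA B (mean ± SD, n = 3). The siRNA A ratios lay above all control ratios, a difference of 1.12 that reached the smallest p that 3 against 3 libraries allow (two-sided exact permutation test, p = 0.1, adjusted p = 0.225 over 9 ratio tests).

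PARD3 (ENSG00000148498.11, chr10:34398488-35104253, minus strand), the scaffold of the complex, stood at 57.9, 64.5 and 65.4 scaled CPM in control, at 67.0, 62.0 and 68.9 in libraries labelled siRNA A and at 76.9, 83.7 and 76.2 in those labelled siRNA B. The libraries labelled siRNA B lay above all others. PARD3 rose for siRNA B by 0.33 on the log2 scale (SE 0.10, adjusted p = 0.0194), a call lost without control replicate 1 (0.27, adjusted p = 0.0840) and on library totals alone (0.12, adjusted p = 0.427). For siRNA A the value was 0.07 (SE 0.10, adjusted p = 0.537), and on library totals alone it was −0.29 with an adjusted p of 0.0404. The direction for siRNA A therefore flipped with the scaling. Pseudogenes and a Y RNA overlap the span of PARD3 on its own strand, and whether they overlap its exons was not checked.

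CRB3 (ENSG00000130545.11, chr19:6463788-6467232, plus strand), the apical anchor, stood at 6.78, 7.25 and 5.77 scaled CPM in control, at 9.41, 10.9 and 8.52 in libraries labelled siRNA A and at 9.21, 8.91 and 9.95 in those labelled siRNA B. All 6 siRNA libraries lay above the control libraries on this scale, whereas the unscaled CPM of the groups overlapped. CRB3 rose by 0.48 on the log2 scale for siRNA A (SE 0.13, adjusted p = 0.00941) and by 0.45 for siRNA B (SE 0.13, adjusted p = 0.0201). On library totals alone neither was called (0.15, adjusted p = 0.382, and 0.26, adjusted p = 0.169). The siRNA B call was also lost without control replicate 3 (0.35, adjusted p = 0.0930), siRNA B replicate 1 (0.45, adjusted p = 0.0523) or siRNA B replicate 3 (0.41, adjusted p = 0.0666). SLC25A23 and DENND1C overlap CRB3 on the other strand.

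Of the basolateral LGL genes, LLGL2 (ENSG00000073350.9, chr17:73521161-73571290, plus strand) stood at 80.9, 79.7 and 76.8 scaled CPM in control, at 72.1, 66.9 and 66.2 in libraries labelled siRNA A and at 88.7, 88.1 and 93.3 in those labelled siRNA B. The 3 groups did not overlap, with siRNA A lowest and siRNA B highest. Only the difference between the siRNAs was called (−0.39, SE 0.09, adjusted p = 0.00471), whereas each siRNA against control was not (−0.21, adjusted p = 0.0635, and 0.18, adjusted p = 0.124, SE 0.09 for each). On library totals alone LLGL2 was called lower for siRNA A (−0.57, adjusted p = 4.90e-04). With the trend on GC content removed it was called higher for siRNA B (0.35, adjusted p = 0.00652), and its siRNA A value turned positive (0.065, adjusted p = 0.524). LLGL2 has the highest GC content of the members (64.1% of its longest transcript, against a median of 48.1% over the genes tested).

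LLGL1 (ENSG00000131899.6, chr17:18128949-18148189, plus strand, with FLII on the other strand) stood at 29.2, 39.5 and 33.9 scaled CPM in control, at 25.6, 33.6 and 26.0 in libraries labelled siRNA A and at 24.5, 31.3 and 23.3 in those labelled siRNA B. Each siRNA group overlapped control on this scale. The log2 fold changes were −0.26 (SE 0.15, adjusted p = 0.175) and −0.37 (SE 0.15, adjusted p = 0.0870). With the replicate numbers as a block the siRNA A value was called (adjusted p = 0.0392), as it was on library totals alone (−0.62, adjusted p = 0.00366). The siRNA B value was called on library totals alone (−0.57, adjusted p = 0.0101), without control replicate 1 (−0.48, adjusted p = 0.0484) and without siRNA B replicate 2 (−0.49, adjusted p = 0.0309). The log2 ratio of LLGL2 to LLGL1 was 1.22 ± 0.232 in control, and 1.28 ± 0.257 and 1.78 ± 0.264 after siRNA A and siRNA B (mean ± SD, n = 3). Control and siRNA B ratios did not overlap (difference 0.56, two-sided exact permutation test, p = 0.1, adjusted p = 0.225).

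**Figure D3:**
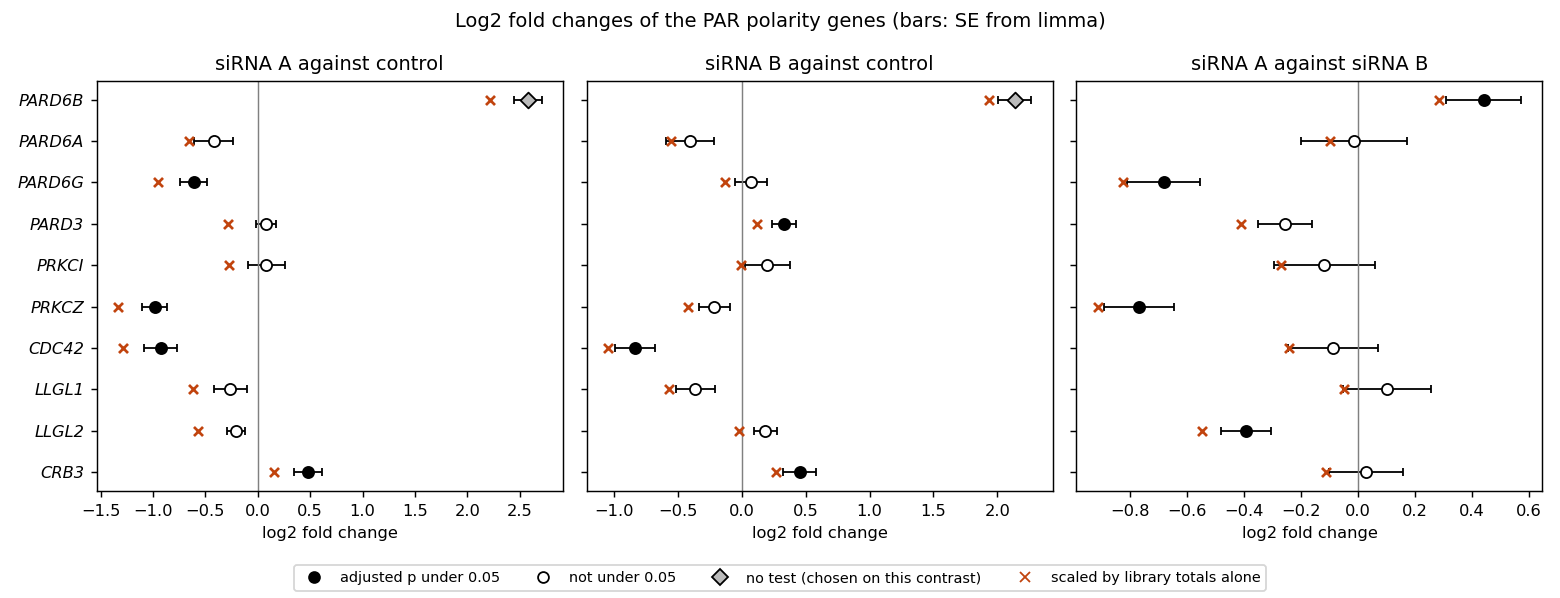
Log2 fold change (x axis) of each member (y axis) for each siRNA against control and for A against B, with bars of 1 SE from limma. Crosses give the same value on library totals alone; every cross lies to the left of its point. CDC42 is filled and lower in both comparisons with control (−0.93 and −0.84), and CRB3 is filled and higher in both (0.48 and 0.45).

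Counted over the 9 members other than PARD6B, 1 was called higher (CRB3) and 3 lower (PARD6G, PRKCZ, CDC42) for siRNA A against control, where 23.9% of all genes were called higher and 27.6% lower. Their median log2 fold change was −0.26, against −0.02 over all genes. For siRNA B 2 were called higher (PARD3, CRB3) and 1 lower (CDC42), against a background of 15.6% higher and 18.3% lower, and the median was 0.07 against 0.0043 over all genes. Between the siRNAs 1 of 10 was higher for siRNA A, namely PARD6B, whose siRNA libraries also entered its choice. A further 3 were lower (PARD6G, PRKCZ, LLGL2), where 17.6% of all genes were called higher and 19.5% lower. These shares are near the background, so the set as a whole is not set apart by its number of calls.

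The split by direction depended on the scaling. On library totals alone, 0 members were called higher and 7 lower for siRNA A (9.05% and 47.0% of all genes), 0 and 4 for siRNA B (6.90% and 29.7%), and 0 and 4 between the siRNAs (10.2% and 27.0%). The calls of CDC42, PRKCZ and PARD6G for siRNA A, of CDC42 for siRNA B, and of PRKCZ, PARD6G and LLGL2 between the siRNAs were made under both scalings. Those of CRB3, of PARD3 for siRNA B and of PARD6B between the siRNAs were not. With the replicate numbers as a block, 6 members were called for siRNA A in place of 4, 1 higher and 5 lower. This model called 27.5% of all genes higher and 30.8% lower for siRNA A.

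Per kb of merged exons, LLGL2 and PARD3 were the most abundant members in control, at 9.97 ± 0.266 and 8.53 ± 0.556 scaled CPM per kb. LLGL1 (5.21), PRKCI (5.20), CDC42 (5.14), PARD6B (4.33), CRB3 (4.12), PARD6G (4.05) and PRKCZ (3.54) followed, and the library values of neighbours in this part of the order overlapped. Those of LLGL2 and PARD3 did not. PARD6A was lowest at 1.44 ± 0.203 scaled CPM per kb. In libraries labelled siRNA A, PARD6B led at 26.9 ± 2.91, ahead of PARD3 at 8.99 and LLGL2 at 8.61, and in those labelled siRNA B it led at 19.9 ± 3.13, ahead of LLGL2 at 11.3 and PARD3 at 10.8. CDC42 stood at 2.67 and 2.89 scaled CPM per kb there. The order depends on the length used. The merged exons of CDC42 cover 24398 bases and its longest transcript 10503. Without division by length CDC42 was the highest member in control, at 125 scaled CPM against 79.1 for LLGL2. With the longest transcript CDC42 (11.9) and PRKCZ (11.4) came after LLGL2 (22.3) in control, and PARD6B came after LLGL2 in libraries labelled siRNA B (20.3 against 25.3).

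Promoter sequences in RefSeq (GRCh38.p14), 1 start per gene, were available for 7 of the 10 members. The first entry of each gene was taken. A gene can have other starts, and whether this is the main or the outermost start was not checked. PARD6B, PARD3 and LLGL2 had no entry. The 250 bases before the start are printed below for the 4 members with an entry that were called in a comparison, so that genes lower with both siRNAs (CDC42), higher with both (CRB3) and lower with siRNA A (PRKCZ, PARD6G) can be read beside each other. Each runs 5′ to 3′ on the strand of the gene, and capitals mark the motifs found.
CDC42, chr1:22052459-22052708, plus strand: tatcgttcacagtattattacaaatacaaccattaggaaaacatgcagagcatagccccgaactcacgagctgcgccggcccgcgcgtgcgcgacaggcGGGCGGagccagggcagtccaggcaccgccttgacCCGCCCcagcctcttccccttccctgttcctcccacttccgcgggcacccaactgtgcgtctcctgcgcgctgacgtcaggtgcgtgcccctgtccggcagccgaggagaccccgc
CRB3, chr19:6464021-6464270, plus strand: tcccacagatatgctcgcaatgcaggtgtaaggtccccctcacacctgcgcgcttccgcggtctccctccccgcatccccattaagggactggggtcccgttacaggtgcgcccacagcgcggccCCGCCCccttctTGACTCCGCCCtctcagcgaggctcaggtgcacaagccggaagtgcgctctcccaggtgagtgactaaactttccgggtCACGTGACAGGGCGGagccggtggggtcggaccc
PRKCZ, chr1:2073414-2073663, plus strand: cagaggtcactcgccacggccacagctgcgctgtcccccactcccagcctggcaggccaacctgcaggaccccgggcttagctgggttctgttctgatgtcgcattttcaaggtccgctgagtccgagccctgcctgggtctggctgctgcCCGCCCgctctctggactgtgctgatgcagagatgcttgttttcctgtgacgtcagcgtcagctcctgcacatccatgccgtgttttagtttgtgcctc
PARD6G, chr18:80247515-80247764, minus strand: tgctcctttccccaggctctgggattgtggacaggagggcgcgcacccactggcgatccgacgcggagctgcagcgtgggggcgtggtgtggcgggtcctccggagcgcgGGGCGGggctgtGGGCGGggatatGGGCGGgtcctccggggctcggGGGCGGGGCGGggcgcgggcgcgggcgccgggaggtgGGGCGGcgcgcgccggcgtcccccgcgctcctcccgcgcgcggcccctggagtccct

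The motifs were searched on both strands: the GC box (GGGCGG), the CCAAT box (CCAAT), the TATA box (TATAAA), and the core letters of the AP-1 (TGANTCA), TEAD (GGAATG), E-box (CACGTG) and antioxidant response (TGACNNNGC) motifs. A GC box was present in 7 of 7 members, against 42.6% of 35116 promoters of the same length. CDC42 held 2, CRB3 3, PRKCZ 1 and PARD6G 6. CRB3 also held an E-box (6.34% of all promoters) and a pair of antioxidant response cores (10.9%), each of which overlaps a GC box. Of the members not printed, PARD6A held a CCAAT box (32.0% of all promoters) and PRKCI 2 TEAD cores (11.9% held at least 1). No AP-1 or TATA letters were in these windows, which 6.57% and 10.7% of all promoters held. GC content of the upstream bases was 80.4% for PARD6G, 66.0% for CRB3, 64.8% for CDC42 and 61.6% for PRKCZ, against a median of 58.0%. A match of letters is a description of the sequence and not a measured site.

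Around PARD6B on chromosome 20, none of the 3 nearest tested genes on either side rose with both siRNAs. Over all genes, 23.9% were called higher for siRNA A and 15.6% for siRNA B. The share called higher with both was not computed, so the absence among these neighbours is a description only. PTPN1, a tyrosine phosphatase gene that starts 221 kb before PARD6B, fell with siRNA A (−0.72, adjusted p = 1.19e-04) and siRNA B (−0.45, adjusted p = 0.00421). BCAS4, which starts 63.3 kb after it, was called lower for siRNA B (−1.62, adjusted p = 1.60e-05) and not for siRNA A (−0.29, adjusted p = 0.106). ADNP rose for siRNA A (0.52, adjusted p = 0.00476) but not on library totals alone (0.16, adjusted p = 0.328), and LINC01271 fell for siRNA A (−0.75, adjusted p = 0.00176). ENSG00000232043, which lies within PTPN1 on the other strand, and DPM1 were not called for either siRNA.

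Over the 9 libraries, the log2 levels most like that of PARD6B, among 10667 genes with a mean of at least 5 CPM, were those of TNFRSF10B (Pearson's r = 0.998), THAP9-AS1 (0.997), PIP5K1A (0.993), PGRMC1 (0.992) and ELL2 (0.992). TNFRSF10B, a TRAIL receptor gene, went from 122 scaled CPM in control to 213 and 199, and PIP5K1A, a lipid kinase gene, from 104 to 242 and 222. These libraries fall into 3 groups that PARD6B separates, so the coefficients mostly restate the group means and are given without a test. Within the complex, CRB3 (r = 0.87) was most like PARD6B and CDC42 (r = −0.94) most unlike it.

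The wider polarity machinery was read from lists chosen by function, with earlier results of these data known. The shares of all genes to set beside the counts are 23.9% higher and 27.6% lower for siRNA A, and 15.6% and 18.3% for siRNA B. In the Crumbs complex, 1 of 6 tested genes rose for siRNA A and 3 fell, and 1 rose for siRNA B and 0 fell. LIN7C, a PDZ adaptor of the complex, rose with both (0.63 and 0.46, adjusted p = 0.00126 and 0.0123). CRB2, a paralog of CRB3 with a large extracellular part, fell for siRNA A (−0.90, adjusted p = 8.56e-04) from a low level of 2.35 scaled CPM in control. The list medians were −0.42 and 0.0086. In the Scribble module, whose products oppose the PAR complex at the basolateral side, 2 of 5 rose and 3 fell for siRNA A, and 2 rose and 2 fell for siRNA B (medians −0.35 and 0.10). SCRIB fell with both (−0.98 and −0.51, adjusted p = 8.92e-05 and 0.00880), as did DLG5 (−0.76 and −1.30, adjusted p = 0.00600 and 4.10e-04), whereas DLG1 rose (0.63 and 0.72, adjusted p = 0.00230 and 0.00184).

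Kinases and adaptors of the PAR-1, PAR-4 and PAR-5 families (MARK kinases, the STK11 complex and 14-3-3 proteins) had 7 of 16 genes higher and 4 lower for siRNA A, and 5 higher and 0 lower for siRNA B (medians 0.10 and 0.13). The 14-3-3 genes SFN (0.99, adjusted p = 2.28e-04) and YWHAZ (0.98, adjusted p = 3.18e-05) had the largest rises for siRNA A among the genes of this list, and CAB39L (0.59, adjusted p = 0.00469) and YWHAZ (0.48, adjusted p = 0.00546) for siRNA B. CAB39L rose for siRNA A too (0.60, adjusted p = 0.00265). Among partners and paralogs of the complex 1 of 6 rose and 1 fell for siRNA A, and 3 rose and 1 fell for siRNA B (medians −0.03 and 0.17). SQSTM1, whose product p62 binds aPKC, rose with both (0.92 and 1.11, adjusted p = 9.59e-04 and 5.89e-04). WWC1, whose product KIBRA also binds aPKC, fell with both (−0.76 and −1.31, adjusted p = 5.76e-05 and 3.51e-06).

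Around CDC42, 2 of 12 relatives and GTPase regulators rose and 5 fell for siRNA A, and 2 rose and 2 fell for siRNA B (medians −0.12 and 0.05). TIAM1, a RAC exchange factor that binds PAR3, fell with both (−0.999 and −0.70, adjusted p = 5.00e-04 and 0.00782). RHOU, a CDC42-like GTPase, fell for siRNA A from a low level (−1.20, adjusted p = 9.80e-04), and ITSN2, a CDC42 exchange factor, rose with both (0.53 and 0.59, adjusted p = 0.0287 and 0.0262). Of the CDC42 effectors 1 of 11 rose and 3 fell for siRNA A, and 1 rose and 2 fell for siRNA B (medians 0.02 and −0.01). CDC42EP1 (−1.48, adjusted p = 1.63e-06) and the kinase gene PAK1 (−0.93, adjusted p = 7.23e-05) fell for siRNA A, each also against siRNA B (−1.25 and −1.21, adjusted p = 8.30e-06 and 3.44e-05). CDC42EP3 rose with both (0.57 and 0.75, adjusted p = 0.00183 and 6.37e-04), and PAK4 fell for siRNA B (−0.53, adjusted p = 0.00370).

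Other protein kinase C genes gave 1 higher and 2 lower of 4 tested for siRNA A, and 0 higher and 3 lower for siRNA B (medians −0.38 and −0.35). PRKCE fell with both (−1.41 and −0.97, adjusted p = 1.27e-05 and 2.85e-04), as did PRKCH (−0.53 and −0.42, adjusted p = 0.00405 and 0.0228). Genes of tight and adherens junctions had 6 of 16 higher and 6 lower for siRNA A and 4 and 4 for siRNA B (medians 0.10 and −0.21). This split became 2 and 7, and 1 and 9, on library totals alone. The shares of all genes there were 9.05% and 47.0%, and 6.90% and 29.7%. OCLN and CLDN7, which encode the strand proteins occludin and claudin-7, rose for siRNA A (1.26 and 1.05, adjusted p = 2.32e-04 and 1.66e-04) and for siRNA B (0.68 and 0.63, adjusted p = 0.0156 and 0.00722). CGN, which encodes the cytoplasmic plaque protein cingulin, fell with both (−1.04 and −1.22, adjusted p = 8.15e-05 and 5.70e-05). CTNNB1 rose for siRNA A (0.43, adjusted p = 0.0136), fell for siRNA B (−0.72, adjusted p = 0.00120) and was higher for siRNA A than for siRNA B (1.15, adjusted p = 6.78e-05).

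**Figure D4:**
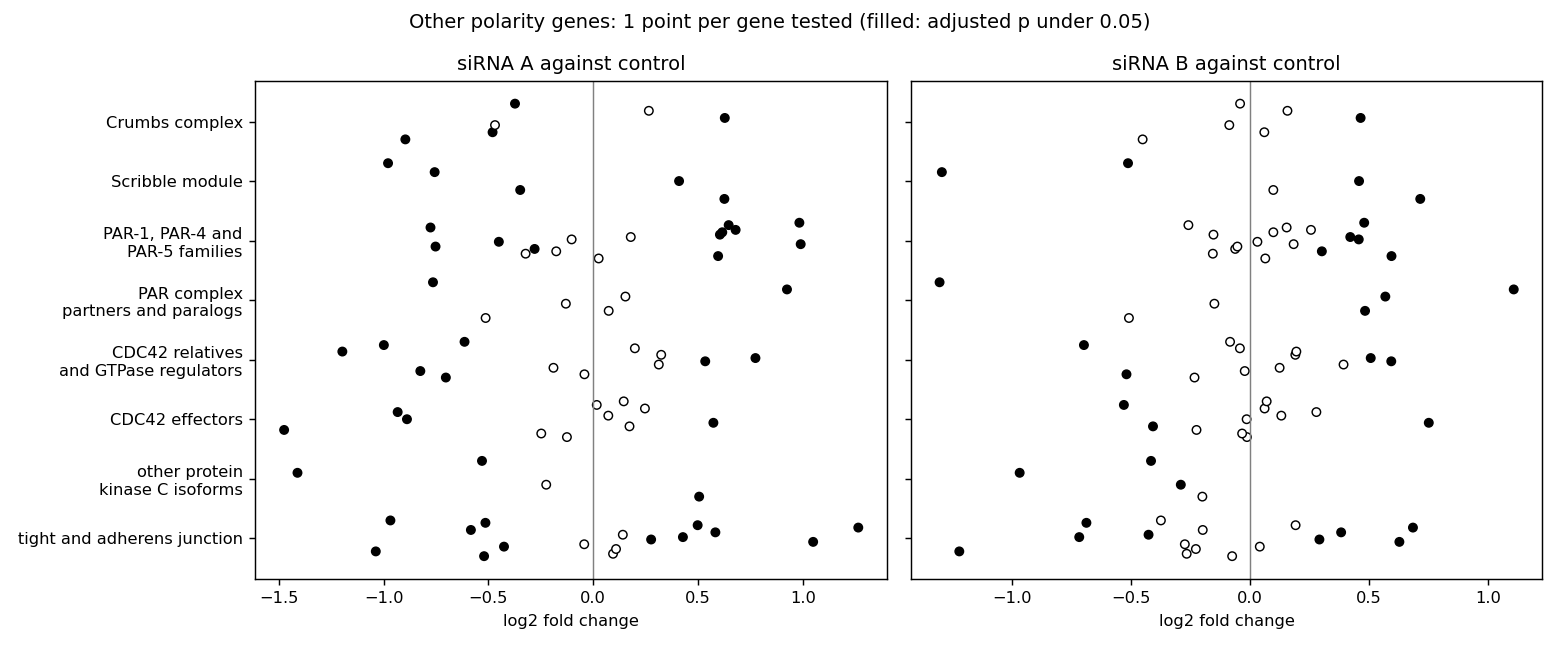
Log2 fold change (x axis) of every tested gene of the 8 wider polarity lists (y axis; vertical offsets within a list only separate the points) for siRNA A and siRNA B against control. Filled points have an adjusted p under 0.05; in each of the 8 lists filled points for siRNA A lie on both sides of 0.

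These counts too shift with the scaling: on library totals alone the numbers higher and lower for siRNA A became 0 and 4 (Crumbs complex), 0 and 3 (Scribble module), 3 and 8 (PAR-1, PAR-4 and PAR-5 families), 1 and 3 (partners), 1 and 7 (CDC42 relatives), 0 and 5 (CDC42 effectors) and 0 and 3 (other protein kinase C). In the same order they became 0 and 1, 1 and 2, 1 and 2, 2 and 1, 0 and 3, 1 and 3, and 0 and 3 for siRNA B. The shares of all genes called higher and lower under this scaling were 9.05% and 47.0% for siRNA A. For siRNA B they were 6.90% and 29.7%. For siRNA A the rises of LIN7C, DLG1, CAB39L, ITSN2, CDC42EP3 and CTNNB1 were not called there (adjusted p = 0.136, 0.132, 0.118, 0.441, 0.173 and 0.721), whereas those of SQSTM1, YWHAZ, SFN, OCLN and CLDN7 were. For siRNA B the rises of LIN7C, YWHAZ, ITSN2 and CLDN7 were not called (adjusted p = 0.190, 0.0784, 0.116 and 0.0593). CRB1, DLG2, RHOJ and PRKCB were not analysed here, and PARD3B, CDC42EP5, PRKCQ and CLDN1 did not pass the filter on low values. Of the genes named here, CRB2, DLG1, DLG5, SQSTM1, TIAM1, ITSN2, PAK1, PAK4, CDC42EP3, PRKCE, PRKCH, OCLN, CLDN7, CGN and CTNNB1 overlap a gene on the other strand, so their counts are less certain.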

How the data were processed

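Poly(A) RNA of 9 HCT116 cultures was sequenced as single reads. Per the labels' processing notes the reads were mapped to GRCh37 (hg19), with TopHat2 and HTSeq named as tools. Strand use and annotation release are not given in the sources used here. The authors deposited 1 table of CPM values (15354 rows, 9 columns, reads of a gene scaled to a common library total), with no further scaling. All values were whole multiples of 1 read (100% within 0.001), so reads were recovered. Identifiers were matched to GENCODE on GRCh37 (14871 matched, 483 did not), which also gave the coordinates, lengths and GC content used. At these depths 1 CPM stood for 15.6 to 23.3 reads, a counting error of 20.7% to 25.3%, and the floor of 3 reads was 0.129 to 0.193 CPM. Without molecular identifiers, these figures cover counting error only.

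Groups and replicate numbers came from the sample titles. A gene entered the test if 3 or more of the 9 libraries reached 1 CPM. Tests were made with limma 3.58.1 (R 4.3.3, trend on the mean) on log2(TMM-scaled CPM + 1), with all libraries in 1 model and Benjamini-Hochberg adjustment over all genes. The tool edgeR 4.0.16 gave the TMM factors and, on recovered reads, an alternative test, as did DESeq2 1.42.0. Other alternatives were library totals alone, upper quartile scaling, a pseudocount of 0.1, no filter, a replicate block, removal of the trend on GC content, longest-transcript lengths and leaving out each library. The fit was run on simulated counts with a small set of genes changed for siRNA A alone, up and down in equal number. Such counts do not test the scaling under changes as wide as those in these libraries. Plots and sequence scans used Python 3.11.15, numpy 2.4.6, pandas 2.3.3, scipy 1.17.1 and matplotlib 3.10.9.

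No pair of libraries of a group agreed within sampling noise (chi-square per degree of freedom at least 13.05). After subtraction of group means, libraries with the same number correlated at 0.65, 0.41 and 0.13 between control and siRNA A. The values were 0.17, 0.44 and −0.39 between control and siRNA B, and 0.20, 0.44 and 0.02 between the siRNAs. Libraries with unlike numbers were not compared, so whether the numbers pair the samples was not tested.

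The members and the wider lists were chosen with earlier results of these data known. All members are named, together with the 2 genes of largest absolute change called per list and comparison where described, the 5 genes most like PARD6B, the 3 nearest tested genes on each side of it, and SNHG5.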

Additional observations from a re-analysis of the deposited data

How the results depend on the processing

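With the replicate numbers as a block, 6 members in place of 4 were called for siRNA A. This model called 27.5% of all genes higher and 30.8% lower there, against 23.9% and 27.6% without the block. For siRNA B 5 in place of 3 were called (PARD6A and LLGL1 added, adjusted p = 0.0327 and 0.0112). Between the siRNAs 5 in place of 4 were called (PARD3 added, −0.26, adjusted p = 0.0466). The block changed no other call of a member. Its shares over all genes for siRNA B and between the siRNAs are not given here, so these added calls are a description only. On library totals alone 7 members were called for siRNA A, all lower, where 47.0% of all genes were called lower. The cause was not tested. The count tests (edgeR and DESeq2 on recovered reads) gave 4, 3 and 4 called members, as limma did. Their shares over all genes are not given here.

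Of 510 refitted values of single members, 452 kept their direction and their side of the threshold, 21 came to pass it, 10 no longer passed it, 25 changed sign, and 2 untested values of PARD6B moved by more than their spread (2.22 and 1.93 on library totals alone). Each value that changed sign was uncalled in the main analysis. For siRNA A against control these were PARD3 (−0.29 on library totals alone, −0.0088 with upper quartile scaling), PRKCI (−0.28 on totals, −0.0011 with upper quartile scaling, −0.063 with the GC trend removed, −0.077 to 0.18 leaving out 1 library) and LLGL2 (0.065 with the GC trend removed). For siRNA B they were PARD6G (−0.13 on totals, −0.017 to 0.18 leaving out 1 library), PRKCI (−0.0083 on totals) and LLGL2 (−0.026 on totals). Between the siRNAs they were PARD6A (0.085 with the GC trend removed, 0.014 by DESeq2, −0.21 to 0.12 leaving out 1 library), PRKCI (−0.28 to 0.070), CDC42 (−0.29 to 0.023), LLGL1 (−0.047 on totals, −0.018 to 0.23 leaving out 1 library) and CRB3 (−0.11 on totals, −0.038 with upper quartile scaling, −0.055 to 0.10 leaving out 1 library). The siRNA A difference from control in the log2 ratio of LLGL2 to LLGL1 ran from −0.049 to 0.20, and in that of PARD6A to PARD6G from −0.34 to 0.12, leaving out 1 library. Depth limits PARD6A most, at 19 to 57 reads per library.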
